A study of Mus musculus with 23 samples.

Results

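The 4 genes described here encode the aminotransferases that clinical chemistry measures in serum as AST and ALT. Got1 and Got2 encode the cytosolic and the mitochondrial aspartate aminotransferase, and Gpt and Gpt2 encode the cytosolic and the mitochondrial alanine aminotransferase. They were chosen by symbol from the 24475 genes of a mouse liver table of RPKM (read counts scaled to transcript length and library size). No expression value entered that choice, although it was made with earlier results from these data known. All livers came from male C57BL/6J mice, which ate either a regular chow or a diet rich in fat (HFD, high-fat diet) over 4 months and received an antibody at 10 mg/kg in a 3-week course. REGN1193 blocks the glucagon receptor, GCGR, and REGN496 is taken here as the isotype control because it is the only other antibody in the labels. The 23 libraries form 4 groups, with 5 libraries on chow with the control antibody, 6 on chow with the GCGR antibody, 6 on HFD with the control antibody and 6 on HFD with the GCGR antibody. The labels number the libraries from 1 to 23 and do not state that each is a separate mouse. The p-values therefore reflect variation from library to library, part of which may be technical. The labels do not give the mice's ages.

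Both enzymes move an amino group between an amino acid and a keto acid with pyridoxal phosphate, the active form of vitamin B6, as cofactor. Aspartate aminotransferase interconverts aspartate and 2-oxoglutarate with oxaloacetate and glutamate, and its cytosolic and mitochondrial forms are both parts of the malate-aspartate shuttle, which carries reducing equivalents into mitochondria. Alanine aminotransferase interconverts alanine and pyruvate, the step through which alanine from muscle enters gluconeogenesis in the liver. Hepatocytes hold much of both enzymes and release them when damaged, which is why serum AST and ALT serve as markers of liver injury. Glucagon acts on hepatocytes through GCGR and raises amino acid breakdown and gluconeogenesis. The data below are transcript levels, and neither serum activity nor enzyme protein was analysed here.

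The genes lie at 3 different chromosomes in GRCm38. Got1 spans chr19:43499752-43524605 on the minus strand, and its main transcript has 9 exons. Got2 spans chr8:95864134-95888547 on the minus strand, with 10 exons. Gpt spans chr15:76695716-76699686 on the plus strand, with 11 exons, and Gpt2 spans chr8:85492576-85527560 on the plus strand, with 12 exons. Of all 33-base stretches of the main transcripts, the length of 1 sequencing read, none from Got1 or Gpt occurred in another annotated gene. In Got2, 38.2% of the stretches were also in its processed pseudogene Got2-ps1, which has no row of its own in the table, so the level of Got2 is uncertain to the extent that such reads were counted or dropped. Antisense copies of Got2 sequence lie in Gm10874, with 44.6% of the stretches, and in Gm45760, which overlaps the Got2 exons on the opposite strand, with 11.4%. Whether strand was used in counting is not given in the sources used here. In Gpt2 the shared part was 4.41%. Got1l1, a Got1-related gene, reached at most 0.0487 RPKM in any library and was not tested.

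The 250 bases before the start of Got1 and of Gpt2 are shown because Got1 changed with the antibody and Gpt2 changed with diet. RefSeq's GRCm38.p6 promoter table held 3 of the 4 genes, all but Gpt, and only the Got1 and Gpt2 windows begin at the same start site in RefSeq and in GENCODE. The Got1 window is chr19:43524606-43524855 on the minus strand and the Gpt2 window is chr8:85492326-85492575 on the plus strand. Capitals mark matches, on either strand, to the CCAAT box (CCAAT) and to the composite element TGATGNAA bound by C/EBP and ATF family factors.
Got1: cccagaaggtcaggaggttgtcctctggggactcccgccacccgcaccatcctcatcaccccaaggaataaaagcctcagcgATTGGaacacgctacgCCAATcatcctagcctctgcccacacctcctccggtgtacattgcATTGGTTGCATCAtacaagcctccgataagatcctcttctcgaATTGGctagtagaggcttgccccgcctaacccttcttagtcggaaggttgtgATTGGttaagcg
Gpt2: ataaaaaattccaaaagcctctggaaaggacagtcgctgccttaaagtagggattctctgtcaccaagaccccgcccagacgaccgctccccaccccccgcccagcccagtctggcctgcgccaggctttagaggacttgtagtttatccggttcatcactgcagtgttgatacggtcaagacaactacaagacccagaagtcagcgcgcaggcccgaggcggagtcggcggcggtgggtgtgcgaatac
The Got1 window held 5 CCAAT matches, and the one lying 107 to 103 bases before the start is directly followed by the TGATGNAA match at 102 to 95 bases. The motifs were chosen after these sequences had been read, so their presence in Got1 is a description. Among 32851 promoter windows of the same length, 33.8% held CCAAT at least once, 0.213% held it at least 5 times and 3.45% held TGATGNAA. No match to TGACGTCA or TGACG (the cAMP response element and part of it, in 1.55% and 17.8% of windows), TTGCNNAA (C/EBP, 9.56%), GTAAACA (FOXO, 3.17%) or AGAACA (glucocorticoid receptor, 16.1%) was found in the windows of Got1, Got2 or Gpt2. The Gpt2 and Got2 windows held no match to any of these letters.

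RPKM summed to between 594026 and 692295 per library, and 15365 to 16032 genes were above 0. Read totals are not in the table. Steps between low values gave relative depths of 0.861 to 1.14 across libraries, and annotated lengths put a typical library near 13600000 reads, with quartiles over genes of 10000000 and 16100000. On that estimate, between 354 and 20972 reads stood behind each value of the 4 genes, the fewest for Got1 in library 9. All 8 hepatocyte markers examined, among them Alb and Apoa1, were present, with sums of 53637 to 72745 RPKM, and the antibody comparisons called 0 of them on chow and 1 on HFD, Alb, which was lower. Of all tested genes, 0.946% were called on chow and 7.45% on HFD. Library 11, of the chow group with the GCGR antibody, held skeletal muscle transcripts, with 7 muscle markers summing to 122 RPKM against at most 1.05 in any other library. Libraries 19 and 20, of the HFD group with the GCGR antibody, correlated least with the rest of their group. Gcgr, the antibody's target, averaged 107 ± 6.11 RPKM (SD, n = 5) in chow controls and 112 ± 6.03 (SD, n = 6) with the GCGR antibody, and 117 ± 4.36 and 118 ± 3.07 on HFD (SD, n = 6 each). Its transcript is not a check on an antibody that binds the protein.

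Got1, the cytosolic aspartate aminotransferase, was the only member called for the GCGR antibody, and it fell on both diets. On chow its RPKM in the 5 control libraries was 69.4, 55.8, 95.7, 72.6 and 92.2. In the 6 libraries with the GCGR antibody the lowest was 10.98, the median 17.04 and the highest 19.3. On HFD the controls ran from 57.7 through a median of 93.8 to 110, and the GCGR antibody group from 16.6 through 18.9 to 25.5. The groups did not overlap on either diet, and every library with the GCGR antibody lay far below every control. Group means were 77.1 ± 16.6 (SD, n = 5) against 16.4 ± 3.16 (SD, n = 6) on chow, 4.71 times higher in controls, and 88.7 ± 21.9 against 19.7 ± 3.12 (SD, n = 6 each) on HFD, 4.50 times higher in controls. On the log2(RPKM + 1) scale the difference was -2.16 ± 0.17 (SE) on chow and -2.09 ± 0.16 on HFD, with adjusted p-values of 1.11e-07 and 2.23e-08 from limma with Benjamini-Hochberg adjustment over 11939 genes. Among those genes Got1 had the smallest p of the antibody comparison on chow and the third lowest log2 difference, and on HFD it ranked 4 by p and 2 from the lowest by log2 difference.

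The fall of Got1 did not differ measurably between diets. The difference of the antibody effects, HFD minus chow, was 0.08 ± 0.24 (SE) on the log2 scale, with a 95% interval of -0.41 to 0.57 and an adjusted p of 0.938 in limma. Its sign depended on single libraries and turned negative without library 3, 9 or 15, with values from -0.04 to 0.19 over all libraries left out in turn. Diet did not pass the test for Got1 under either antibody. HFD controls were 0.19 ± 0.17 above chow controls on the log2 scale (adjusted p 0.432), and the GCGR antibody groups differed by 0.26 ± 0.16 (adjusted p 0.227).

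**Figure D1:**
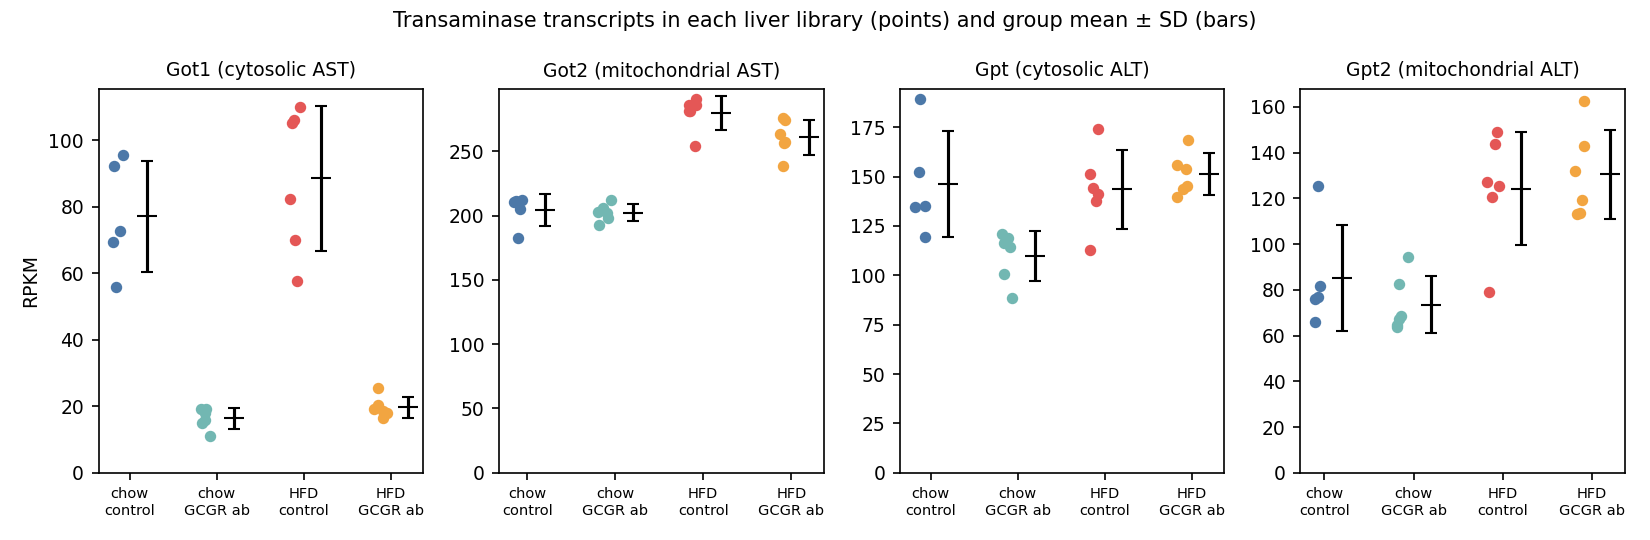
RPKM (y axis, from 0) of the 4 transaminase genes in each liver library (points), with group mean ± SD beside them, for 5 chow control libraries and 6 in each other group. Got1 lies between 10.98 and 25.5 in all GCGR antibody (ab) libraries and between 55.8 and 110 in all controls, while the other 3 genes overlap between antibodies within each diet.

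Got2, the mitochondrial partner of Got1 in the shuttle, was the most abundant of the 4 transcripts in all 23 libraries and varied little within groups. On chow the controls had 210.5, 212, 183, 212 and 205 RPKM and the GCGR antibody group ran from 192 through a median of 202 to 212, so the groups overlapped throughout. The log2 difference was -0.01 ± 0.05 (SE), with a 95% interval of -0.12 to 0.10 and an adjusted p of 0.959. On HFD the controls ran from 254 through 284 to 290.5 and the GCGR antibody group from 238 through 260 to 276. That difference, -0.10 ± 0.05 with an interval of -0.21 to 0.00295, did not pass the test (adjusted p 0.223), and the groups overlapped. The antibody effects on the 2 diets differed by -0.09 ± 0.07 (adjusted p 0.733).

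Got2 was higher on HFD under both antibodies. Means were 204 ± 12.5 RPKM (SD, n = 5) on chow and 279.9 ± 13.02 (SD, n = 6) on HFD with the control antibody, a ratio of 1.37, and all HFD libraries lay above all chow libraries. With the GCGR antibody the means were 202 ± 6.59 and 261 ± 13.7 (SD, n = 6 each), a ratio of 1.29, again with no overlap. The log2 differences were 0.45 ± 0.05 (SE, adjusted p 3.04e-06) and 0.37 ± 0.05 (adjusted p 1.68e-05).

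Gpt, the cytosolic alanine aminotransferase, did not pass the test for the antibody on either diet. On chow the controls had 135, 135, 119, 152 and 189 RPKM, and the GCGR antibody group ran from 88.7 through a median of 115 to 121. The groups overlapped by a narrow margin, with the lowest control, library 3, below the highest treated library, library 6. The log2 difference was -0.40 ± 0.11 (SE), with an unadjusted p of 0.00128 and an adjusted p of 0.0897 in limma, and without library 5, the highest control, it was -0.30 with an adjusted p of 0.303. On HFD the controls ran from 113 through 143 to 174 and the GCGR antibody group from 139.8 through 149 to 169, a log2 difference of 0.08 ± 0.10 (adjusted p 0.655). The difference between these effects was 0.48 ± 0.15 with a 95% interval of 0.17 to 0.79. It had an unadjusted p of 0.00386 and did not pass after adjustment over all genes (adjusted p 0.227).

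Diet passed the test for Gpt in 1 of its 2 comparisons. Controls averaged 146 ± 26.8 RPKM (SD, n = 5) on chow and 144 ± 19.9 (SD, n = 6) on HFD, a log2 difference of -0.02 ± 0.11 (SE, adjusted p 0.910). With the GCGR antibody, Gpt rose from 109.9 ± 12.7 on chow to 151 ± 10.5 on HFD (SD, n = 6 each), a ratio of 1.38. All 6 HFD libraries exceeded all 6 chow libraries, and the log2 difference was 0.46 ± 0.10 (adjusted p 0.00196). The chow group with the GCGR antibody enters both this comparison and that of antibodies on chow. The difference between the 2 diet effects is the same contrast as that between the 2 antibody effects, 0.48 ± 0.15. It did not pass (adjusted p 0.227 in limma), so a diet effect that depends on the antibody is not established for Gpt.

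Gpt2, the mitochondrial alanine aminotransferase, spread widely on chow, where the controls had 65.7, 76.2, 81.6, 76.6 and 126 RPKM. The chow GCGR antibody group ran from 63.7 through a median of 67.7 to 94.5, inside the range of the controls but for its lowest libraries. The log2 difference was -0.19 ± 0.16 (SE, adjusted p 0.730), with an interval of -0.52 to 0.14. Its highest library was library 11, the one with muscle transcripts, which also had the highest Got2 of its group. Without it the group averaged 69.3 ± 7.72 RPKM (SD, n = 5) for Gpt2 and 200 ± 5.13 for Got2. The part of the muscle transcripts in these levels was not tested. On HFD the controls ran from 79.2 through 126 to 149 and the GCGR antibody group from 113 through 126 to 163, a log2 difference of 0.09 ± 0.15 (adjusted p 0.766), and the groups overlapped. The 2 antibody effects differed by 0.28 ± 0.22 (adjusted p 0.713).

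Gpt2 rose on HFD under both antibodies. Means were 85.1 ± 23.3 RPKM (SD, n = 5) and 124 ± 24.7 (SD, n = 6) in controls, a ratio of 1.46, and the log2 difference was 0.55 ± 0.16 (SE, adjusted p 0.0126). These groups overlapped, since chow library 5 had 126 RPKM and HFD library 13 had 79.2. With the GCGR antibody the means were 73.5 ± 12.4 and 131 ± 19.4 (SD, n = 6 each), a ratio of 1.78 with no overlap, and the log2 difference was 0.82 ± 0.15 (adjusted p 3.47e-04).

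**Figure D2:**
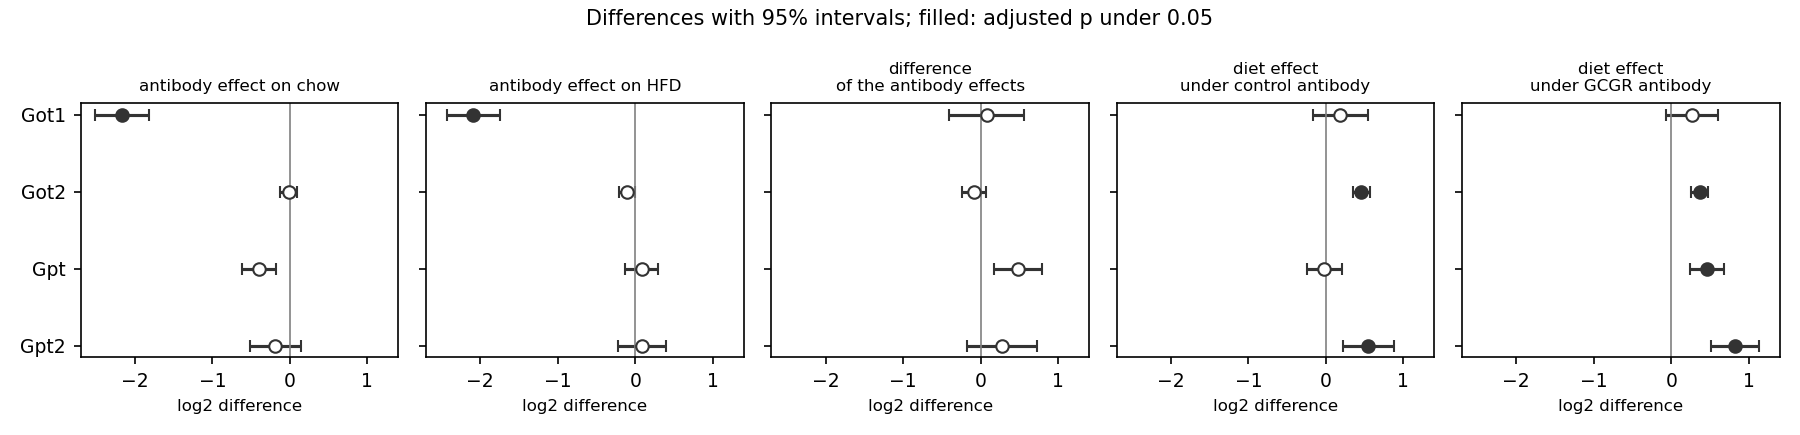
Log2 differences (x axis, on log2(RPKM + 1)) of the 4 genes in 5 comparisons, with 95% intervals as bars and filled points where the adjusted p in limma was under 0.05. Got1 stands near -2.16 and -2.09 for the antibody, and the filled points for diet are Got2 and Gpt2 under the control antibody and Got2, Gpt and Gpt2 under the GCGR antibody.

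Counted over the comparisons, 1 of the 4 genes passed the test for the antibody on chow, where 0.946% of the 11939 tested genes did, and 1 of 4 had groups that did not overlap, against 2.50% of all genes. For the antibody on HFD, 1 of 4 passed against a background of 7.45%, and 1 of 4 did not overlap against 2.85%. None of the 4 passed for the difference of the antibody effects in limma, where 0.201% of all genes did, and 1 of them, Gpt, had an unadjusted p under 0.05. Diet under the control antibody raised 2 of 4, against 11.6% of all genes called higher, and 1 of 4 did not overlap, against 15.9%. Diet under the GCGR antibody raised 3 of 4, against 13.2%, and those 3 did not overlap, against 10.3%. The median log2 difference of the 4 genes was -0.29 for the antibody on chow and -0.01 on HFD, where the medians of all genes were 0.03 and 0.05. For diet it was 0.32 under the control antibody and 0.41 under the GCGR antibody, with all-gene medians of -0.03 and -0.02. In whole liver, fewer cells of a type and less RNA per cell cannot be told apart.

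RPKM is per transcript length, so the 4 genes can be set in order, within the uncertainty of the Got2 level from its shared sequence. In chow controls Got2 led at 204 RPKM, followed by Gpt at 146, Gpt2 at 85.1 and Got1 at 77.1. Gpt2 and Got1 overlapped there, and their order differed between libraries, with Got1 above Gpt2 in 2 of 5. In HFD controls Got1 was above Gpt2 in 1 of 6 libraries, and Gpt and Gpt2 changed places, with Gpt2 above Gpt in 2 of 6. With the GCGR antibody Got1 was the lowest of the 4 in all 12 libraries, and its highest value lay below the lowest Gpt2 value on each diet. By mean level among 11939 genes, Got1 ranked 856 in chow controls and 2781 with the GCGR antibody, and 797 and 2499 on HFD. Got2 stayed between rank 272 and 387 in all 4 groups, Gpt between 510 and 627 and Gpt2 between 582 and 880.

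The balance of the cytosolic and mitochondrial forms moved with Got1, as the stacked bars by library show. Got1 made up 27.3% ± 5.37 of the AST transcripts (Got1 plus Got2, SD, n = 5) in chow controls and 23.9% ± 4.89 (SD, n = 6) in HFD controls, and 7.46% ± 1.28 and 7.005% ± 0.795 with the GCGR antibody (SD, n = 6 each). The lowest control share was 16.8% and the highest share with the GCGR antibody was 8.77%. The AST sum went from 281 ± 10.7 RPKM in chow controls to 218 ± 8.66 with the GCGR antibody, and from 369 ± 22.97 to 281 ± 16.1 on HFD. The mean sum in HFD livers with the GCGR antibody was near that of chow controls, with a larger part from Got2. Gpt made up 63.4% ± 3.58 and 60.0% ± 3.69 of the ALT transcripts (Gpt plus Gpt2) on chow with the control and the GCGR antibody, and 53.8% ± 5.86 and 53.8% ± 4.49 on HFD. On chow the ALT sum was 231 ± 48.1 and 183 ± 21.2 RPKM, and on HFD 268 ± 35.1 and 282 ± 18.1. The AST to ALT transcript ratio was 1.25 ± 0.182 and 1.20 ± 0.102 on chow, and 1.395 ± 0.182 and 0.997 ± 0.0467 on HFD, where its lowest control value, 1.14, lay above the highest with the GCGR antibody, 1.07. These sums and ratios are descriptions of the values above and were not tested. Those that include Got2 carry the uncertainty of its level from shared sequence.

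**Figure D3:**
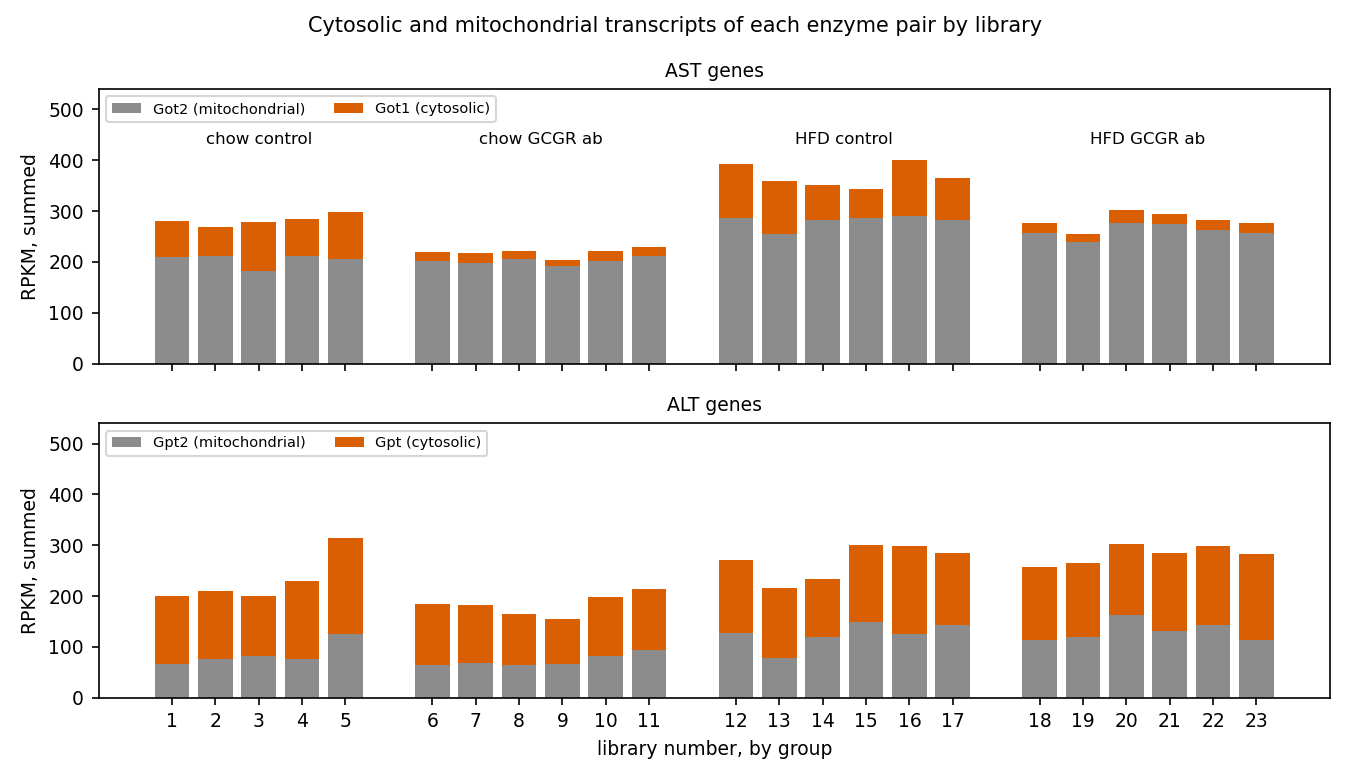
Stacked bars, from 0, of summed RPKM (y axis) per library (x axis, by group), with mitochondrial forms in grey and cytosolic forms in orange, for AST genes (top) and ALT genes (bottom). The orange Got1 part is 5.40% to 8.77% of the AST bars with the GCGR antibody (ab) and 16.8% to 34.4% in controls, and the Gpt share of the ALT bars overlaps between antibodies.

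Among themselves, the 4 genes did not vary as a block. Over the 23 libraries, which share diets and antibodies, Pearson's r on log2(RPKM + 1) was 0.81 between Got2 and Gpt2, the mitochondrial pair, and 0.26 between Got1 and Got2. Gpt and Gpt2 had an r of 0.63. With group means removed these were 0.43, -0.05 and 0.39. All are descriptions, as libraries of a group are not independent of its treatment.

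The genes most like Got1 over the 23 libraries, among 6146 genes whose RPKM averaged 5 or more, were Oat, Hgd, Lhpp, Fh1 and Ass1, with r of 0.951, 0.935, 0.934, 0.907 and 0.902. Oat encodes ornithine aminotransferase, Hgd an enzyme of tyrosine breakdown, Fh1 fumarase and Ass1 argininosuccinate synthase of the urea cycle, which consumes aspartate. Genes picked for likeness to Got1 over these libraries share its antibody difference by that choice, so their lower levels with the GCGR antibody are no separate result. With group means removed their r with Got1 fell to between 0.274 and 0.577. The genes most like Gpt were Dcxr, Fah, Prodh, Mdh1 and Pxmp2, with r of 0.863 to 0.906, and here r stayed between 0.752 and 0.913 within groups. Prodh encodes proline dehydrogenase and Mdh1 the cytosolic malate dehydrogenase of the malate-aspartate shuttle. Among the genes most like Got2 were Hadh, at 0.952, and Lect2, Acat1 and Ube2l6, at 0.936 to 0.938. With group means removed, the r of these genes with Got2 fell to between 0.356 and 0.517. Hadh encodes a dehydrogenase of mitochondrial fatty acid oxidation. Among those most like Gpt2 were Plscr2, Them7, Thrsp and Blmh, at 0.906 to 0.915. With group means removed, the r of these genes with Gpt2 lay between 0.741 and 0.788. Genes picked for likeness to Gpt, Got2 or Gpt2 also share group differences by that choice, and those are no separate result. These likenesses over shared libraries carry no p.

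Other aminotransferases were compared with the 4 genes as a list of 14, of which 11 passed the filter. For this and the following lists the background is the share over all tested genes. For the antibody 0.394% were called higher and 0.553% lower on chow, and 5.33% and 2.12% on HFD. For diet 11.6% were higher and 18.3% lower under the control antibody, and 13.2% and 16.6% under the GCGR antibody. On chow 0 were called higher and 3 lower, namely Oat, Agxt and Agxt2, and on HFD 0 were called higher and 3 lower, namely Oat, Agxt and Etnppl. Oat ran from 318 to 421 RPKM in chow controls and from 79.0 to 148 with the GCGR antibody, and from 328 to 679 and from 99.1 to 206 on HFD, with no overlap on either diet. Its adjusted p-values were 1.62e-05 and 2.65e-06. Agxt, the alanine-glyoxylate aminotransferase of peroxisomes, went from 141 ± 2.49 to 88.9 ± 13.95 RPKM on chow (adjusted p 0.0119) and from 128 ± 31.1 to 90.3 ± 10.6 on HFD (adjusted p 0.0249). The HFD call was lost without library 12, 13, 16 or 20, with only the HFD groups fitted, and without libraries 11, 19 and 20 together (adjusted p up to 0.0970). Agxt2, its mitochondrial relative, fell on chow from 55.5 ± 5.63 to 41.9 ± 3.73 (adjusted p 0.0139, or 0.0642 without library 5), while on HFD the means were 74.96 ± 5.19 and 73.5 ± 8.39. The difference of these effects on Agxt2 was not called (adjusted p 0.224). Etnppl, a phospholyase of the same enzyme family, went from 25.9 ± 6.64 to 12.5 ± 3.43 on HFD (adjusted p 3.60e-04). On chow Etnppl also went lower, from 45.1 ± 4.80 to 30.5 ± 5.54 RPKM, but was not called. On chow 6 of the 11 had an unadjusted p under 0.05 in limma. Genes not called for the antibody included Tat, at 374 ± 102 and 190 ± 50.0 RPKM on chow, with no overlap. On HFD Tat averaged 320 ± 64.5 and 218 ± 142. Ccbl2, also not called for the antibody, went the other way on chow, from 73.9 ± 12.6 to 87.4 ± 14.3. The median log2 difference of the 11 genes was -0.27 on chow and -0.12 on HFD.

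The partners of Got1 and Got2 in the malate-aspartate shuttle, the 2 malate dehydrogenases and the carriers Slc25a11, Slc25a12 and Slc25a13, are a list of 5. On chow 0 of 5 were called in limma (2 with an unadjusted p under 0.05), and on HFD 0 were higher and 1 lower. That gene was Mdh2, the mitochondrial malate dehydrogenase, at 148 ± 17.3 RPKM in controls and 124 ± 5.63 with the GCGR antibody (adjusted p 0.0376). Its call was lost in 10 of 31 alternatives, with an adjusted p of up to 0.113, namely with only the HFD groups fitted and without library 12, 14, 15, 16, 17, 18, 21, 22 or 23. Mdh1 averaged 313, 278, 307 and 303 RPKM in the 4 groups, in the order chow control, chow GCGR antibody, HFD control and HFD GCGR antibody. Diet raised 2 of 5 under each antibody, Mdh2 and Slc25a11 with the control and Slc25a11 and Slc25a13 with the GCGR antibody, against 11.6% and 13.2% of all genes. The control-antibody count fell to 1 in 12 of 31 alternatives, 9 of them leaving out library 1, 2, 3, 4, 12, 14, 15, 16 or 17, and the count called lower went from 0 to 1 in 8. The list's median log2 difference with the antibody was -0.08 on chow and 0.05 on HFD.

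Genes that supply or use pyruvate and alanine were a list of 15, all tested. The antibody lowered 2 on chow, Sdsl and Slc38a4, and 5 on HFD, Ldha, Sds, Sdsl, Slc38a4 and Slc1a4, and raised 0 on either diet. The chow count was 1 after quantile normalization and without library 3, 5, 6, 7, 8 or 9. Sds, serine dehydratase, which makes pyruvate from serine, went from 97.3 ± 14.5 to 38.2 ± 29.0 RPKM on HFD, a log2 difference of -1.53 ± 0.27 (SE, adjusted p 9.27e-04). Library 20 had 96.8 RPKM of Sds, while the other 5 treated libraries had at most 32.7. On chow the Sds means were 86.1 ± 26.2 and 38.3 ± 9.06 with no overlap, and the test did not pass (adjusted p 0.0566). Sdsl, a relative of Sds, fell by 0.77 on chow and by 0.80 on HFD on the log2 scale (adjusted p 0.00255 and 2.86e-04). Ldha, lactate dehydrogenase A, was 296 ± 16.3 and 303 ± 27.3 RPKM on chow (adjusted p 0.959), while on HFD it went from 603 ± 134 to 373 ± 43.7 (adjusted p 4.54e-04), and the difference of these effects was not called (adjusted p 0.0766). Slc1a4, a carrier of small neutral amino acids, averaged 3.96 ± 1.75 and 1.93 ± 0.457 RPKM on HFD (adjusted p 0.0118, or 0.0786 with only the HFD groups fitted). The median of the 15 log2 differences was -0.08 on chow and -0.09 on HFD.

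Glutamate and 2-oxoglutarate, the shared substrates of all 4 enzymes, gave a list of 13 genes, of which 10 were tested. On chow 0 were higher and 3 lower, and on HFD 1 was higher and 3 lower. The 3 were the same on both diets, Gls2, Slc25a22 and Slc38a3, and the higher one was Glul. Gls2, the liver form of glutaminase, went from 146 ± 19.4 to 56.0 ± 6.98 RPKM on chow and from 111 ± 19.9 to 35.0 ± 6.03 on HFD (adjusted p 1.29e-06 and 1.49e-08), with no overlap. Slc25a22, a mitochondrial glutamate carrier, went from 59.3 ± 8.73 to 42.1 ± 4.55 on chow and from 69.0 ± 5.82 to 39.3 ± 4.91 on HFD (adjusted p 0.0118 and 7.15e-06). Slc38a3, a glutamine transporter, went from 520 ± 97.8 to 331 ± 70.8 on chow and from 568 ± 96.1 to 385 ± 82.1 on HFD (adjusted p 0.0435 and 0.0223). Its chow call was lost in 15 of 31 alternatives (adjusted p up to 0.164), among them without any 1 of libraries 2, 3, 4, 5, 6, 7, 8, 9, 10, 12, 15, 18 and 22, and its HFD call in 4 (up to 0.0587), among them without library 16 or 20. Glul, glutamine synthetase, rose on HFD from 483 ± 42.0 to 676 ± 98.8 (adjusted p 0.00275). On chow it was 291 ± 32.7 and 337 ± 28.5 (adjusted p 0.439). The median of the 10 log2 differences was -0.13 on chow and -0.18 on HFD.

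Genes that use aspartate or oxaloacetate numbered 15, with 14 tested. The antibody lowered 2 and raised 0 on each diet, and the 2 were Ass1 and Asl, the urea cycle enzymes that take up aspartate and release fumarate. Ass1 went from 1878 ± 367 to 761 ± 136 RPKM on chow and from 1465 ± 326 to 626 ± 48.1 on HFD (adjusted p 2.39e-05 and 1.11e-05). Asl went from 267 ± 33.4 to 178 ± 10.5 and from 240 ± 29.8 to 186 ± 21.1 (adjusted p 0.00124 and 0.0116), and its HFD call was lost with only the HFD groups fitted (adjusted p 0.0551). The median of the 14 was -0.07 on chow and -0.04 on HFD. Of 7 genes for the supply of pyridoxal phosphate, 6 were tested, with 0 called on chow in limma (1 with an unadjusted p under 0.05) and 1 higher and 0 lower on HFD. That was Pdxk, pyridoxal kinase, at 13.2 ± 2.03 and 18.7 ± 1.97 RPKM (adjusted p 0.00120), and the list's medians were 0.12 and 0.16. No gene of any of the 7 lists was called for the difference of the antibody effects in limma, where 13 of 78 had an unadjusted p under 0.05.

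**Figure D4:**
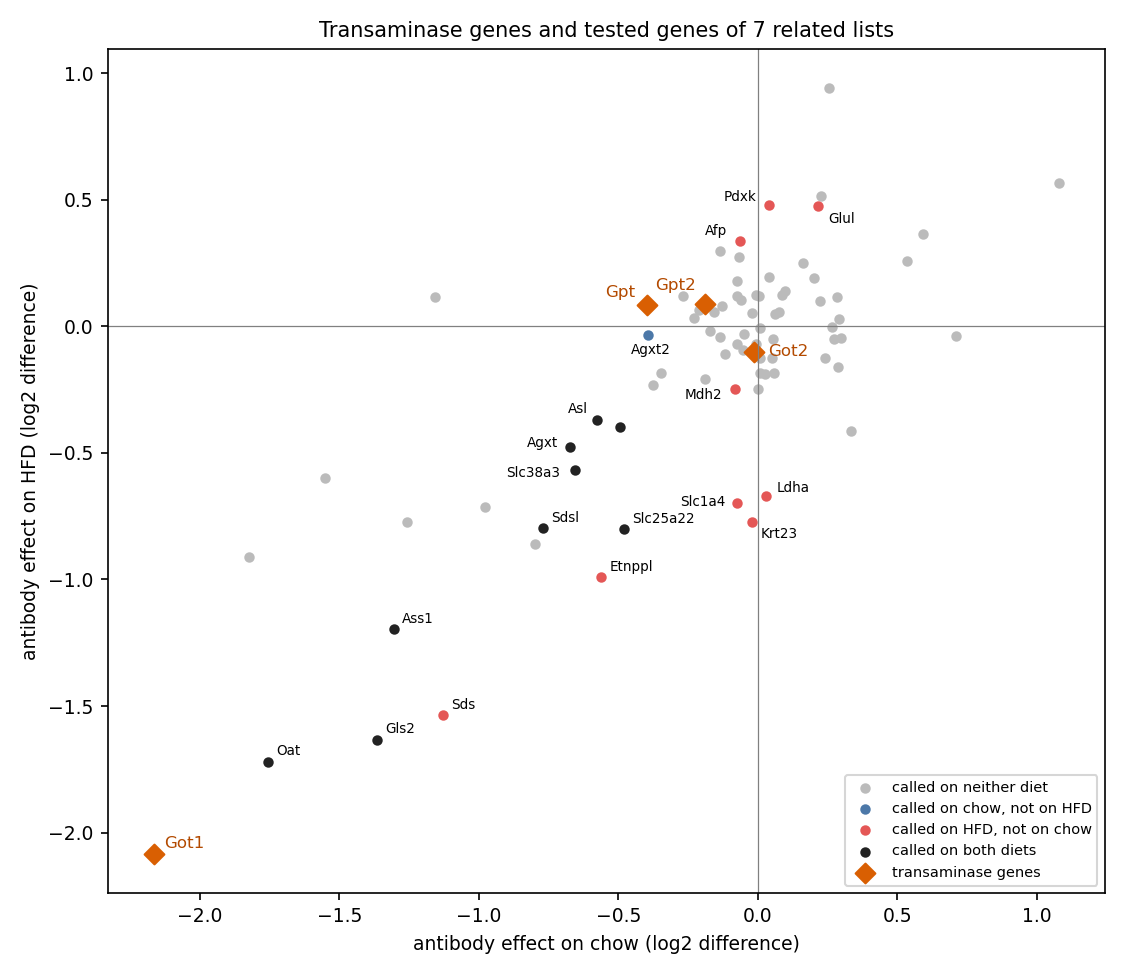
Log2 difference with the GCGR antibody on chow (x axis) against HFD (y axis) for the 4 transaminase genes (diamonds) and the tested genes of 7 related lists (points), coloured by whether the adjusted p in limma was under 0.05 on each diet. Got1 lies lowest, near -2.16 and -2.09, followed by Oat near -1.75 and -1.72, while Got2, Gpt and Gpt2 lie near 0 on the HFD axis.

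Ass1, Gls2, Sds, Pck1 and Cyp2f2 are markers of periportal hepatocytes, and Oat and Glul of pericentral ones, which hold different shares of amino acid metabolism. Of 8 periportal markers, 3 were lower and 0 higher on chow, where 0.553% of all genes were lower. On HFD 4 were lower and 1, Cyp2f2, was higher, where 2.12% of all genes were lower and 5.33% higher. Their summed level ran from 4028 to 5617 RPKM in chow controls, from 2184 to 3339 with the GCGR antibody, and from 2940 to 4022 and from 1856 to 2796 on HFD. Of 8 pericentral markers, 1 was lower and 0 higher on chow, and 1 was lower and 2 higher on HFD, with sums on chow of 4204 to 4696 RPKM in controls and 3702 to 5357 with the GCGR antibody, and on HFD of 4184 to 6154 and 5303 to 7738. No marker of either list was at 0. The periportal sums did not overlap between antibodies on either diet, but much of each sum was Ass1. Without Ass1 the other 7 markers summed to 2402 to 3116 RPKM in chow controls and 1644 to 2458 with the GCGR antibody, and to 1837 to 2097 and 1287 to 2182 on HFD, and the groups overlapped on both diets. The medians without Ass1 were 2487 RPKM in controls and 2198 with the GCGR antibody on chow, and 1901 and 1385 on HFD. In the HFD group with the GCGR antibody, library 20 had the highest sum of all 8 markers, at 2796 RPKM. The part of these marker shifts in the fall of Got1 was not tested.

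Transcripts of liver injury and stress were a list of 17 genes, all tested, chosen because serum AST and ALT serve as markers of liver injury. Whether these transcripts follow injury in these livers was not tested. On chow 0 of 17 were called in limma, and 3 had an unadjusted p under 0.05. On HFD 1 was higher and 1 lower. Afp, fetal albumin's relative alpha-fetoprotein, averaged 0.341 ± 0.126 and 0.696 ± 0.172 RPKM (adjusted p 0.0181), a low level whose call was lost with a pseudocount of 0.1 (adjusted p 0.0888) and after quantile normalization (adjusted p 0.0511). Krt23, a keratin, averaged 2.27 ± 0.834 and 0.917 ± 0.506 (adjusted p 0.00508). Diet raised 5 and lowered 1 under the control antibody, and raised 7 and lowered 0 under the GCGR antibody, with Saa1, Saa2 and Lcn2 among those raised in both. All-gene shares were 11.6% and 13.2% higher, and 18.3% and 16.6% lower. The 1 lowered gene, Gadd45b, lost its call in 20 of 31 alternatives, and the 7 raised were 4 without libraries 11, 19 and 20. The median log2 difference of the list was 0.22 for the antibody on chow and 0.10 on HFD, against 0.03 and 0.05 over all genes.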

How the data were processed

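Liver RNA was sequenced from 23 libraries made with a KAPA strand-specific mRNA kit, amplified over 12 PCR cycles and read as single 33-cycle reads on a HiSeq 2500, per the labels' protocols. The submitters' processing notes name bcl2fastq 2.17, FastQC and GRCm38. The aligner is not given in the sources used here, nor are the counter, annotation and strand setting. Values were deposited by the authors as RPKM for 24475 genes, without counts, so no count model was used. Samples were grouped by the diet and antibody in their titles.

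RPKM was analysed as log2(RPKM + 1) in limma 3.58.1 (R 4.3.3), with 1 mean per group over all 23 libraries and variance moderation with a trend. Genes with at least 0.5 RPKM in at least 5 libraries (11939) were tested, two-sided, with Benjamini-Hochberg adjustment over all of them and a call under 0.05. The periportal marker sum without Ass1 was added after seeing the data. All 5 comparisons came from this fit. It was tried on simulated data with independent normal noise, for the antibody comparisons on chow and HFD only. All 4 transaminase genes passed the filter. The members and the 7 related lists (86 genes, 3 matched by gene ID under older symbols) were chosen with earlier results of these data known. From each list, at most the 4 called genes with the smallest adjusted p were described in full, and for each member the 5 genes of highest Pearson r, of which 2 are not reported here. Other genes named, such as Slc38a4, Tat, Ccbl2, Mdh1, Pck1, Slc25a11 and genes called for diet, were named after their values were seen.

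Gene models came from GENCODE M21 and upstream sequences from RefSeq (GRCm38.p6). Relative depth was read from the steps between low RPKM values, where 92% of values in 1259 genes lay within 0.05 of a whole number of reads. Alternatives were a pseudocount of 0.1, no filter, a mean of at least 1 RPKM, median-ratio scaling, quantile normalization, robust moderation, only the groups of a comparison, and each library left out. Leaving out libraries 11, 19 and 20 together was added after seeing the data.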

Additional observations from a re-analysis of the deposited data

Results flagged for a closer look

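In 92 sets of 1 gene in 1 group, each of the 4 transaminase genes, Gcgr and the 18 described list genes was examined for a library far from the others by Dixon's criterion, and 10 sets met it. For independent sets of normally distributed values, chance gives about 1 in 20. These sets are RPKM of genes measured in the same libraries, so the 10 cannot be read against that rate. Got2 was lowest in library 3 of the chow controls, at 182.6 RPKM against 205 in the next, and in library 13 of the HFD controls, at 254.3 against 281 in the next. Gpt2 was highest in library 5 of the chow controls, at 125.6 RPKM against 81.6 in the next. Library 5 also stood highest for Gls2, at 179 RPKM, and for Ass1, at 2500.5 RPKM. Gcgr was highest in library 1 of the chow controls, at 117 RPKM, and Slc25a22 in library 4, at 74.8 RPKM. With the GCGR antibody on chow, Sdsl was highest in library 6, at 4.75 RPKM, and Slc38a3 in library 11, the library with muscle transcripts, at 467 RPKM. With the GCGR antibody on HFD, Sds was highest in library 20, at 96.8 RPKM against 32.7 in the next. Got1 and Gpt had no such library in any group.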

How the results depend on the processing

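Each of the 20 results of the 4 genes was recomputed under 30 or 31 alternatives, and none was gained or lost as a call. The log2 antibody effect on Got1 spanned -2.27 to -2.06 for chow and -2.20 to -2.02 for HFD, at adjusted p of at most 3.54e-05 and 1.64e-05. The weakest call, Gpt2 for diet under the control antibody, reached an adjusted p of 0.0418 without library 1. Signs turned only for uncalled values near 0: Got2 for the antibody on chow was 0.0174 after quantile normalization, and Gpt for diet under the control antibody was 0.0258 after median-ratio scaling. With libraries left out in turn, Gpt for that diet effect ran from -0.0875 to 0.0774 (above 0 without library 5 or 14), Gpt2 for the antibody on HFD from -0.0357 to 0.145 (below 0 without library 13), and the difference of the antibody effects for Got1 from -0.0367 to 0.186 (below 0 without library 3, 9 or 15). Counts over all genes moved more. On chow, 47 genes were called higher and 66 lower, from 21 to 59 and from 35 to 78 with libraries left out in turn (over 1.5 times off without library 3, 4, 5, 8 or 9), and 82 and 101 without libraries 11, 19 and 20. On HFD, 636 were higher and 253 lower, from 375 to 1151 and from 169 to 453 with libraries left out (over 1.5 times off without library 12, 14 or 19), 377 and 503 after median-ratio scaling, 377 and 412 after quantile normalization, 288 and 135 with only the HFD groups fitted, and 819 and 463 without libraries 11, 19 and 20. For the difference of effects, 15 and 9 became 4 and 4 without a filter, 7 and 10 after median-ratio scaling, 5 and 10 after quantile normalization, 112 and 79 without libraries 11, 19 and 20, and 3 to 44 and 2 to 21 with libraries left out, where all but library 2 and 20 moved a count by over 1.5 times. Diet calls under the control antibody, 1390 higher and 2183 lower, were 1805 and 1818 after median-ratio scaling. No paired analysis was possible because the library numbers are not shared between groups. Depth is an estimate, since the table gives no read counts.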
